A study of Mus musculus with 16 samples.

Results

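Recombinant interleukin-4 (IL-4) was set against vehicle in cultured fibro/adipogenic progenitors (FAPs) that lack the IL-4 receptor alpha chain. The 8 knockout arrays, taken by their sample titles, were used out of 16 in the series, and all 25697 probes of the Illumina MouseRef-8 v2.0 array were read. The groups were Il4ra knockout (genotype given as IL4RA -/-) with IL-4, Il4ra knockout with vehicle, wild type with IL-4 and wild type with vehicle, each with 4 arrays that the series calls biological replicates. All cells were plated FAPs of skeletal muscle from Balb/cJ mice. The sources used here do not state the IL-4 dose or its duration, the age and sex of the mice, the sort used to isolate the cells or whether arrays shared an animal. The receptor is missing from every cell of a knockout mouse, so the FAPs also grew in an animal without it before they were plated.

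IL-4 is a cytokine of type 2 immunity. It binds the IL-4 receptor alpha chain, which pairs with the common gamma chain or with IL-13 receptor alpha 1, and the Janus kinases on these chains phosphorylate STAT6 and, through insulin receptor substrates, feed the phosphoinositide 3-kinase pathway. STAT6 dimers enter the nucleus and bind palindromic sites, and SOCS-family proteins such as CISH close the loop. FAPs are mesenchymal cells of muscle that can form fibroblasts and adipocytes, and type 2 signals from eosinophils are known to reach them after injury. Cells without the alpha chain serve here as a control in which the size of any response to IL-4 can be bounded.

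Values are log2 intensities, with a median of 7.85 and a range of 7.72 to 14.77. Of the probes, 57.0% had a mean within 0.15 of the mean array minimum, a range in which differences are compressed. Il4ra itself had no probe under that name, and the deletion could not be checked by its targeted gene. The 8 knockout arrays correlated with each other at 0.994 to 0.998 over all probes. Knockout vehicle arrays 2 and 3 stood apart from the other 6 on the first principal component of the knockout arrays (33.5% of the variance), at 6.82 and 7.66 against -5.90 to 1.38. Without these 2 arrays the difference changed its size by over 1.5 times or its sign for 78 of the 127 named probes, and many of these are given both ways.

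The promoters below show the palindromes that STAT6 and other STAT proteins are known to prefer, in genes that rose with IL-4 in wild-type FAPs and serve as the test of the knockout. Windows run from 250 bases before to 50 bases after the start site, from RefSeq on GRCm38.p6, forward strand. Capitals mark TTCNNNNGAA or TTCNNNGAA, 2 motifs whose fixed bases read the same on both strands. Cish lies at chr9:107296409-107296708 with 2 adjacent matches, TTCCTGGAA and TTCTTGGAA, which begin at bases 1 and 12 counted from the start site. Pcolce2 lies at chr9:95637378-95637677 with TTCCAAGAA, and Edn1 at chr13:42301226-42301525 with TTCTGGAGAA.
Cish: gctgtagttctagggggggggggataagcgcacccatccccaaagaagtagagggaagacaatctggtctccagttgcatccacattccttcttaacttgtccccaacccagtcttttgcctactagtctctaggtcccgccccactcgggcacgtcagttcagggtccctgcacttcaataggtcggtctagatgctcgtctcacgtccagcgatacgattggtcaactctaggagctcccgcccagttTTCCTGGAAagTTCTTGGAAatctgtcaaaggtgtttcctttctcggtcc
Pcolce2: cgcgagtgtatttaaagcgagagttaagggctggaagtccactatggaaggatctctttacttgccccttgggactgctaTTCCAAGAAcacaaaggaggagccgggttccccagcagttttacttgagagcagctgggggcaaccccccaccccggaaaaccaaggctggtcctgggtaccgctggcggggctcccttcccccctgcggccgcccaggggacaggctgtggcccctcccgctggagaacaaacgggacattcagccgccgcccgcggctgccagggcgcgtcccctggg
Edn1: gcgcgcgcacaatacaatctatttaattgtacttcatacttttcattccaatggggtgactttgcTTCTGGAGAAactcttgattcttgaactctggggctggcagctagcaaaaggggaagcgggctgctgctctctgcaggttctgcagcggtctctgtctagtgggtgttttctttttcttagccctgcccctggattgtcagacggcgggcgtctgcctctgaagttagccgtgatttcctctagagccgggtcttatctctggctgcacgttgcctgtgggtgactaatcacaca
Of the 15 genes with the largest rises in wild type, 13 had a promoter here, and these 3 held a match (1 with TTCNNNNGAA and 2 with TTCNNNGAA). Of the 15 with the largest falls, 10 had a promoter and 0 held a match. Over all 32817 promoters, 6.94% held TTCNNNNGAA, 8.29% TTCNNNGAA and 14.6% either. A match is a run of letters and was not tested as a binding site.

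In knockout FAPs 0 of 25697 probes (0%) passed the test for a change with IL-4, a limma fit with Benjamini-Hochberg adjustment at 0.05. Adjusted p-values began at 0.288. Before adjustment, 1439 probes (5.6%) had a p under 0.05, 713 of them higher with IL-4 (2.77%) and 726 lower (2.83%). With a trended and robust variance model 1 probe passed, and it is described further on. In wild-type FAPs the same fit called 3510 probes (13.7%), 1630 higher and 1880 lower.

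The knockout response was bounded by its 95% intervals. The interval lay wholly inside a 1.1-fold change for 21135 probes (82.2%), inside 1.2-fold for 24891 (96.9%), inside 1.5-fold for 25682 (99.9%) and inside 2-fold for 25696. No measured knockout change reached 1.5-fold, and 37 reached 1.2-fold, 25 upward and 12 downward. In wild type 1646 probes changed by 1.2-fold or more, 343 by 1.5-fold or more and 80 by 2-fold or more. Intervals made wide enough to hold for all probes at once (Bonferroni) lay inside 2-fold for 99.5% of probes, and 133 did not. The bounds are bounds on the deposited scale: with the array minimum subtracted and 50 added, 87.1% of intervals lay inside 1.2-fold and 99.8% inside 1.5-fold.

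**Figure D1:**
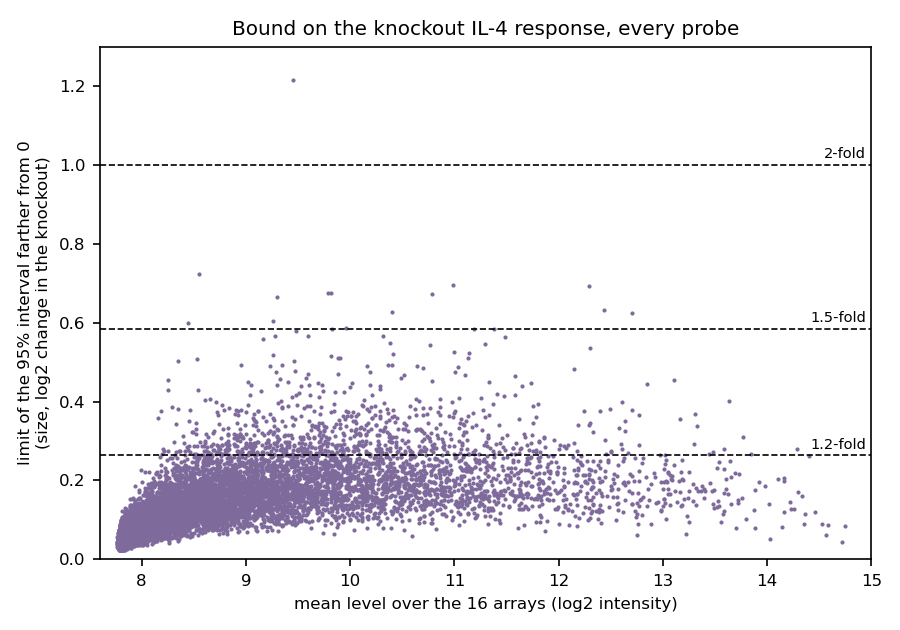
For each of the 25697 probes, the limit of the knockout 95% interval that lies farther from 0 (log2, vertical axis) against the mean level over the 16 arrays (log2 intensity, horizontal axis), with dashed lines at 1.2-fold, 1.5-fold and 2-fold. Of the probes, 15 lie above the 1.5-fold line and 1 above the 2-fold line.

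Precision differed with level, as the plot of interval limits by level shows. The median half-width of the interval was 0.042 over all probes, 0.034 for those below the median probe and 0.14 for the 1606 probes with a mean level of 10 or more. The share with an unadjusted p under 0.05 was 4.16% below the median probe and 9.59% at a level of 10 or more. The narrow intervals of dim probes therefore sit where the scale is compressed, and the share inside 1.2-fold was 77.3% at a level of 10 or more.

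The genes that answered IL-4 most in wild type gave the direct reading of the knockout. Each of the 15 named risers had a knockout interval that included 0, with knockout changes of -0.08 to 0.07. These intervals use a spread shared with the wild-type arrays, where the same genes were high with IL-4. Smpd3 had an SD of 0.083 in wild-type IL-4 arrays, against 0.018 and 0.023 in knockout IL-4 and vehicle arrays. Cish went the other way, at 0.026 against 0.031 and 0.066. Inclusion of 0 thus rests in part on wild-type spread. Taking the wild-type change as measured, the upper limit of the knockout change was 0.87% to 14.5% of it on the log2 scale, with a median of 3.68%. The percentages of a wild-type change given below are also of log2 changes. The levels of 8 genes are drawn by array in the plot of 4 groups.

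**Figure D2:**
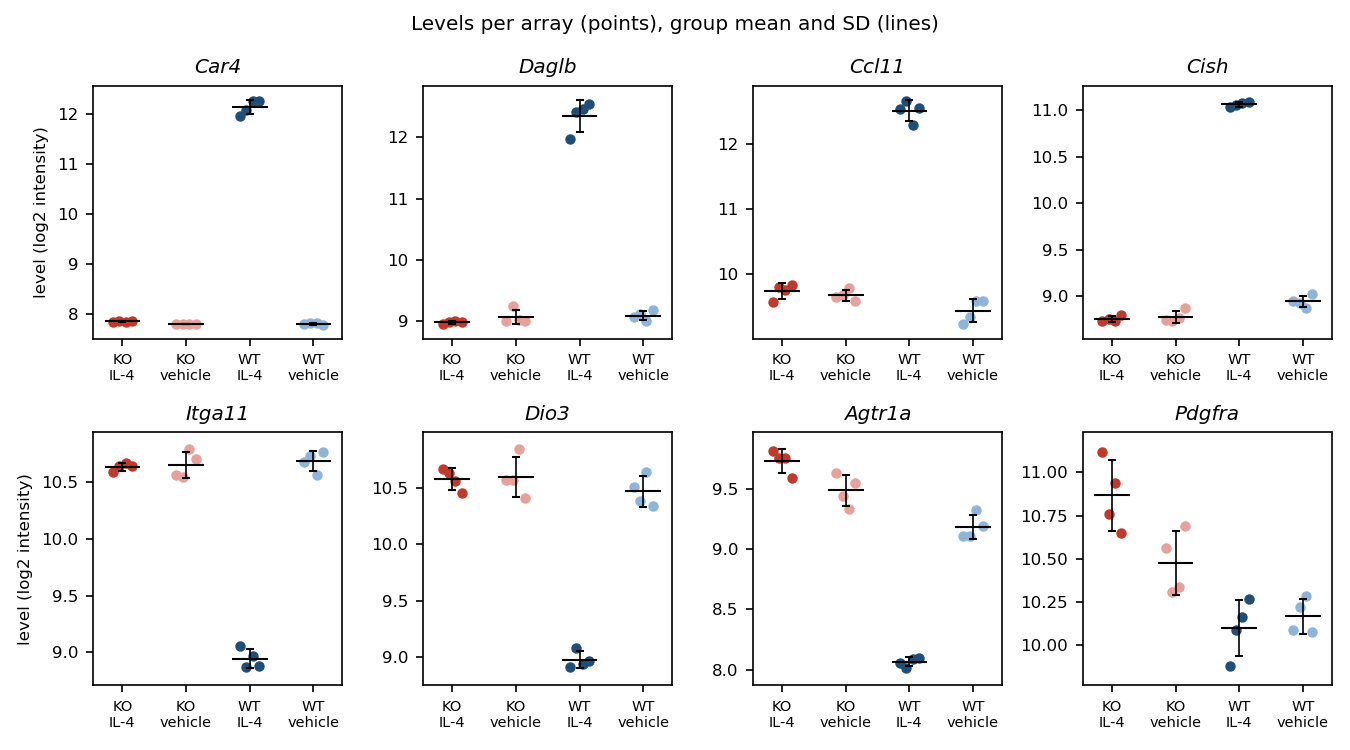
Log2 intensity of 8 genes in each array (points), with group mean and SD (lines, 4 arrays per group), for knockout (KO) IL-4, KO vehicle, wild-type (WT) IL-4 and WT vehicle. Car4, Daglb, Ccl11 and Cish are high and Itga11, Dio3 and Agtr1a low in WT IL-4 arrays, while the mean of Pdgfra is highest in KO IL-4 arrays.

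Cish, the feedback inhibitor with 2 motif matches in its window, stood at 8.74, 8.76, 8.73 and 8.80 in knockout IL-4 arrays. In knockout vehicle arrays it stood at 8.75, 8.73, 8.77 and 8.88. In wild type it stood at 11.04, 11.05, 11.08 and 11.09 with IL-4 and at 8.95, 8.93, 8.88 and 9.02 with vehicle. The knockout groups overlapped and the wild-type groups were far apart. The knockout change was -0.02 (95% interval -0.09 to 0.05), so at most a 1.03-fold rise lay inside the interval, against a 4.35-fold rise in wild type. The wild-type response exceeded the knockout response by 2.15 ± 0.05 (SE, limma adjusted p = 2.5e-13).

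Car4, a membrane-anchored carbonic anhydrase with the largest wild-type rise, was at 7.84, 7.86, 7.83 and 7.85 in knockout IL-4 arrays and at 7.79, 7.79, 7.79 and 7.78 in knockout vehicle arrays. The 2 knockout groups did not overlap, as for 2.81% of all probes (723 of 25697), and the exact permutation test gave a two-sided p of 0.0286, the smallest that 4 against 4 arrays allow. The difference was 0.05 (95% interval -0.05 to 0.16, limma adjusted p = 0.935), close to the floor of the scale. This interval and p-value use the spread shared with the wild-type arrays. The SD of Car4 was 0.146 in wild-type IL-4 arrays, against 0.015 and 0.0045 in knockout IL-4 and vehicle arrays. Inclusion of 0 thus rests mainly on wild-type spread and does not show that Car4 was unchanged in the knockout. Wild-type arrays held 11.95, 12.07, 12.26 and 12.25 with IL-4 against 7.79, 7.81, 7.82 and 7.78 with vehicle, a 20.1-fold rise. Among the 15 risers Car4 was the 1 whose knockout groups did not overlap. With the array minimum subtracted and 50 added, its knockout difference was 0.19, since that scale opens out near the floor.

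Ccl11, eotaxin-1, which draws eosinophils, was read by 2 probes. The brighter gave 11.08, 11.18, 11.22 and 11.19 in knockout IL-4 arrays and 11.07, 11.07, 10.96 and 11.25 in knockout vehicle arrays, a difference of 0.08 (95% interval -0.11 to 0.28). The other gave 9.57, 9.80, 9.75 and 9.83 against 9.65, 9.68, 9.78 and 9.58, a difference of 0.06. Both sets of knockout arrays overlapped, while wild-type cells rose by 3.05 and 3.08 on the log2 scale for the same probes (8.26-fold and 8.46-fold). In the knockout the brighter probe stood well above the floor with IL-4 and with vehicle.

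Daglb, a diacylglycerol lipase, stood at 8.95, 8.98, 9.0 and 8.98 in knockout IL-4 arrays and at 9.0, 9.24, 9.01 and 8.99 in knockout vehicle arrays, where vehicle array 2 was high. Its knockout difference was -0.021 without vehicle arrays 2 and 3. It rose 9.62-fold in wild type. Il13ra2, the decoy receptor of IL-13, stood at 7.88, 7.89, 7.89 and 7.89 in knockout IL-4 arrays and at 7.89, 7.85, 7.93 and 7.92 in knockout vehicle arrays, all near the floor. It rose 3.41-fold in wild type.

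Pcolce2 and Edn1, the other genes with a promoter match, also gave overlapping knockout groups. Pcolce2, an enhancer of procollagen C-proteinase, stood at 8.22, 8.15, 8.25 and 8.10 in knockout IL-4 arrays and at 8.22, 8.27, 8.19 and 8.24 in knockout vehicle arrays. Edn1, the precursor of endothelin 1, stood at 7.93, 7.96, 7.95 and 7.90 in knockout IL-4 arrays and at 7.93, 7.95, 8.0 and 7.89 in knockout vehicle arrays. Wild-type cells raised Pcolce2 5.52-fold and Edn1 3.79-fold. A bright riser, Serpina3n, a serine protease inhibitor, stood at 11.71, 11.76, 11.63 and 11.83 in knockout IL-4 arrays and at 11.79, 11.86, 11.80 and 11.66 in knockout vehicle arrays, so the overlap was not limited to genes near the floor.

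The other risers were Aif1l, Col6a2 (a chain of type VI collagen), Igfbp5 (an IGF-binding protein), Mylk (myosin light chain kinase), Smpd3 (a neutral sphingomyelinase), Prc1 (a cytokinesis protein) and Pip4k2a (a lipid kinase). Their knockout differences ran from -0.06 (Mylk) to 0.07 (Pip4k2a) and their wild-type rises from 2.81-fold to 5.73-fold. Pcolce2 had the tightest limit of the 15, 0.87% of its wild-type rise, and Pip4k2a the loosest, 14.5%. All 15 risers passed the test of the difference between genotypes, with adjusted p-values up to 2.24e-07 in limma, a test that 2156 of all probes passed (8.39%). The genes were chosen by their wild-type change, which is a term of that test, so this count is a description.

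**Figure D3:**
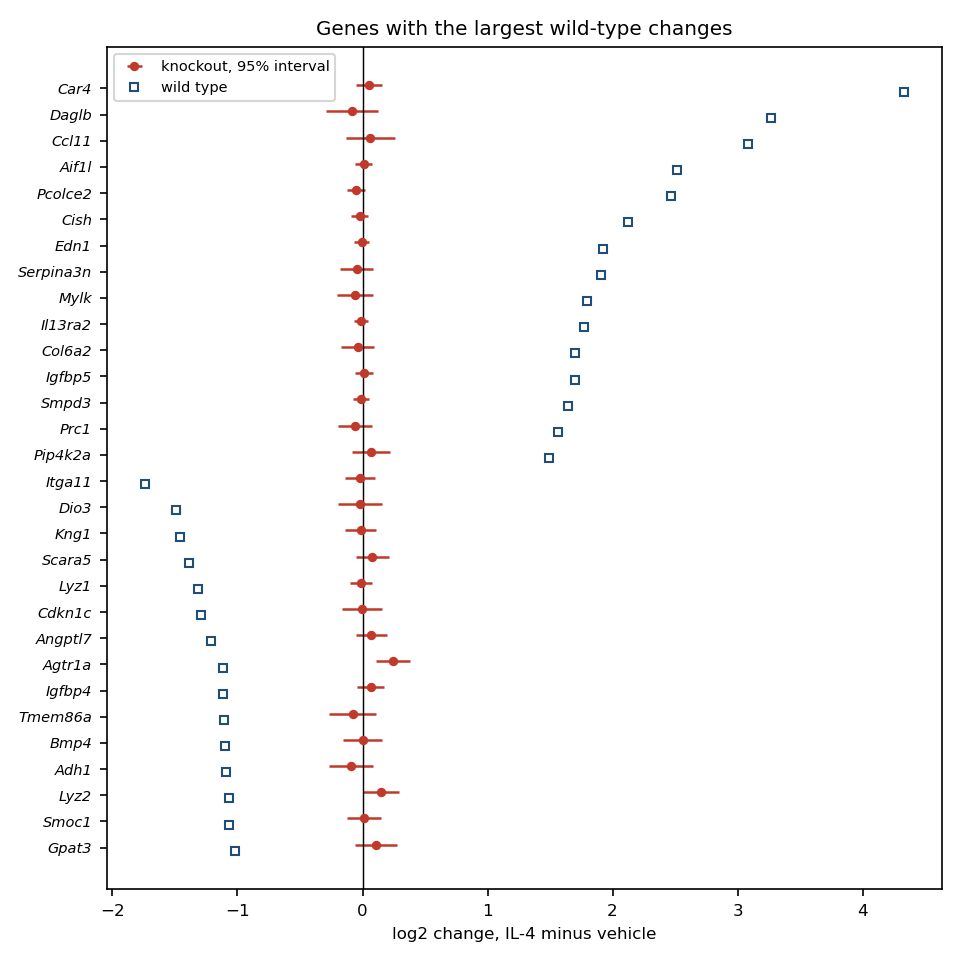
Log2 change with IL-4 for the 15 largest wild-type rises (upper rows) and 15 largest wild-type falls (lower rows). Filled circles give the knockout change with its 95% interval and open squares the wild-type change. Knockout circles lie between -0.09 and 0.24, and 28 of the 30 intervals include 0.

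Genes that IL-4 lowered in wild type gave knockout differences of -0.09 to 0.24, and 13 of 15 intervals included 0. In the wild-type direction the limit of the knockout change was at most 24.9% of the wild-type fall (Adh1), with a median of 7.94%. These bounds were looser than those of the risers. Itga11, the alpha 11 subunit of a collagen-binding integrin, stood at 10.59, 10.64, 10.67 and 10.64 in knockout IL-4 arrays and at 10.57, 10.54, 10.79 and 10.71 in knockout vehicle arrays, with overlap. In wild type it stood at 9.05, 8.87, 8.96 and 8.88 with IL-4 and at 10.68, 10.73, 10.57 and 10.76 with vehicle. The knockout difference was -0.02 (95% interval -0.14 to 0.10). Dio3, the deiodinase that inactivates thyroid hormone, stood at 10.67, 10.63, 10.56 and 10.45 against 10.56, 10.56, 10.84 and 10.41 in the knockout, a difference of -0.02 (95% interval -0.19 to 0.16), and fell by 1.49 on the log2 scale in wild type.

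The 2 exceptions moved against the wild-type direction. Agtr1a, the type 1a angiotensin II receptor, stood at 9.81, 9.75, 9.76 and 9.59 in knockout IL-4 arrays and at 9.63, 9.44, 9.33 and 9.55 in knockout vehicle arrays. IL-4 arrays were higher on average by 0.24 (95% interval 0.10 to 0.38), with overlap between the groups, an exact permutation p of 0.0571 and a limma adjusted p of 0.754. It was 0.14 without vehicle arrays 2 and 3. Lyz2, lysozyme 2, differed by 0.15 (95% interval 0.00 to 0.30) and by 0.03 without those arrays, and its limma adjusted p was 0.882. The 3 probes of Lyz2 disagreed, with knockout differences from -0.01 to 0.15. Lyz2 is near-identical to Lyz1, so the probes of the pair may share signal. Wild-type cells fell by 1.12 for Agtr1a and by 1.07 for Lyz2 on the log2 scale.

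The remaining falls were of Kng1 (kininogen 1), Scara5 (a scavenger receptor that binds ferritin), Lyz1 (lysozyme 1), Cdkn1c (the cell cycle inhibitor p57), Angptl7, Igfbp4 (an IGF-binding protein), Tmem86a, Bmp4 (a bone morphogenetic protein), Adh1 (an alcohol dehydrogenase), Smoc1 and Gpat3 (a glycerol phosphate acyltransferase). Their knockout differences were -0.09 (Adh1) to 0.11 (Gpat3). Without vehicle arrays 2 and 3 these ends turned, to 0.0089 for Adh1 and -0.049 for Gpat3. All 15 falls passed the test of the difference between genotypes, with adjusted p-values up to 6.51e-05 in limma, again a description of genes chosen by their wild-type change.

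Beyond the named genes, the knockout was read against all 80 probes that changed 2-fold or more in wild type. The upper limit of the knockout change in the wild-type direction was under 25% of the wild-type change for 79 of these probes and at most 44.4% for the 80, with a median of 7.47%. Each of the 80 passed the test of the difference, of which their wild-type change is a term. The 1 probe above 25% read Ccl7, a monocyte-attracting chemokine, named after its value was seen, with a knockout difference of 0.21 (95% interval -0.07 to 0.49). For the 263 probes between 1.5-fold and 2-fold in wild type, 257 passed the test of the difference, and 142 (54.0%) had a knockout difference in the wild-type direction. Over all 3510 probes called in wild type, 1776 knockout differences (50.6%) ran in that direction, and 273 intervals (7.78%) excluded 0. That share was 5.6% over all probes, 7.04% at or above the median probe and 9.59% at a level of 10 or more.

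**Figure D4:**
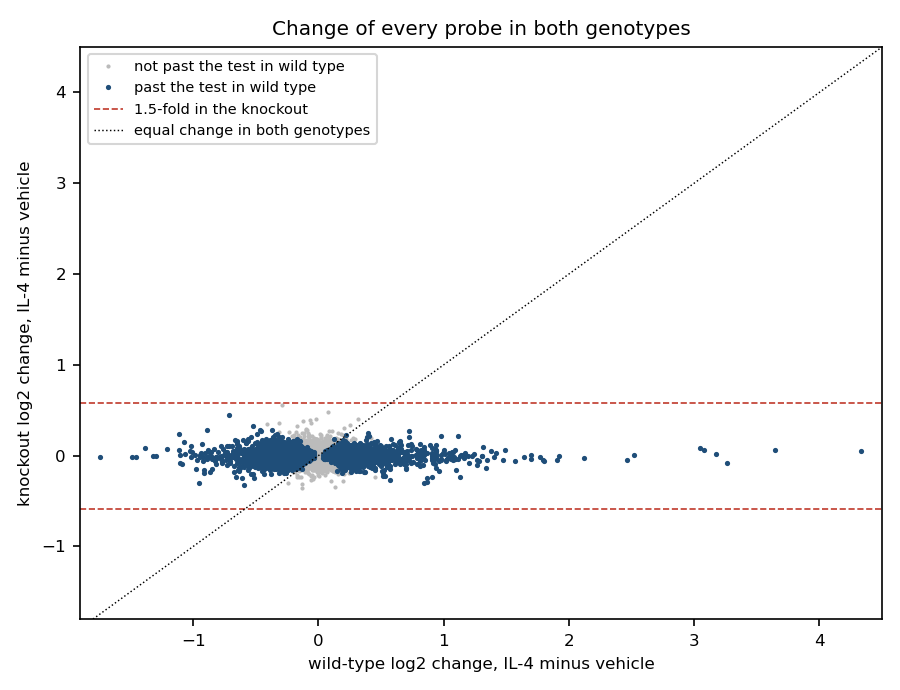
Knockout log2 change with IL-4 (vertical axis) against wild-type log2 change (horizontal axis) for 25697 probes, dark where the wild-type change passed the test. Dashed lines mark 1.5-fold in the knockout and the dotted line equal change. Knockout changes lie between -0.35 and 0.56, and those in wild type between -1.74 and 4.33.

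Averaged by array, the 62 probes that rose 2-fold or more in wild type stood at 9.03 to 9.06 in knockout IL-4 arrays, 9.04 to 9.07 in knockout vehicle arrays, 10.56 to 10.65 in wild-type IL-4 arrays and 9.06 to 9.10 in wild-type vehicle arrays. Knockout groups overlapped. The 18 probes that fell 2-fold or more averaged 10.62 to 10.63 in knockout IL-4 arrays and 10.58 to 10.62 in knockout vehicle arrays, with 4 IL-4 arrays above the 4 vehicle arrays, a small difference against the wild-type direction. Wild-type arrays held 9.26 to 9.28 with IL-4 and 10.45 to 10.51 with vehicle.

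The machinery of the pathway was read next, from lists chosen with earlier results known. Of 22 measured receptor chains and signalling proteins, 0 passed after adjustment, and 2 had an unadjusted p under 0.05, both lower with IL-4. The median change of the list was 0.00, as over all probes. Counts at an unadjusted p under 0.05, here and in the lists below, stand beside 5.6% of all probes (2.77% higher with IL-4, 2.83% lower). Stat6 stood at 8.38, 8.30, 8.33 and 8.22 in knockout IL-4 arrays and at 8.46, 8.48, 8.28 and 8.29 in knockout vehicle arrays (difference -0.07, 95% interval -0.17 to 0.02). Il13ra1, the alternative partner of the alpha chain, stood at 9.24, 9.21, 9.19 and 9.13 against 9.28, 9.15, 9.22 and 9.25, a difference of -0.03. The kinase genes Jak1 and Tyk2 differed by 0.01 and 0.05.

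The 2 lower members were Pik3r1, a regulatory subunit of phosphoinositide 3-kinase, and Irs2, an adaptor of the insulin and IL-4 receptors, and both also fell in wild type. Pik3r1 stood at 10.81, 10.66, 10.70 and 10.59 in knockout IL-4 arrays and at 10.79, 10.99, 11.05 and 10.88 in knockout vehicle arrays. Its difference was -0.24 (95% interval -0.37 to -0.11, adjusted p = 0.754) and -0.14 without vehicle arrays 2 and 3. The difference between genotypes passed for Pik3r1 (limma adjusted p = 0.00525), whose wild-type change was -0.66. The probes of Pik3r1 disagreed, with knockout differences from -0.24 to 0.00.

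Irs2 stood at 9.14, 9.35, 9.31 and 9.01 in knockout IL-4 arrays and at 9.26, 9.68, 9.92 and 9.24 in knockout vehicle arrays. Vehicle arrays 2 and 3 were the high ones, and the difference of -0.32 (95% interval -0.60 to -0.04, adjusted p = 0.865) was -0.05 without them. Wild-type Irs2 fell by 0.59 on the log2 scale, and the difference between genotypes did not pass (limma adjusted p = 0.542). For Irs2 the upper limit of the knockout change thus reached 102% of the wild-type change, so these arrays did not bound it below the wild-type response.

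Of 15 measured feedback inhibitors, 0 passed and 2 had an unadjusted p under 0.05, against 5.6% of all probes. Pias3, an inhibitor of STAT proteins, differed by 0.08 and Socs5 by 0.14 (adjusted p = 0.863 and 0.876 in limma). Without vehicle arrays 2 and 3 Socs5 differed by 0.059. Socs1 stayed near the floor, at 7.77 to 7.82 in knockout IL-4 arrays and 7.77 to 7.85 in knockout vehicle arrays, and Socs3 differed by -0.03. Of 38 measured IL-4 and STAT6 target genes 0 passed and 1 had an unadjusted p under 0.05. That was Pparg, the adipogenic nuclear receptor, at 11.53, 11.47, 11.37 and 11.58 against 11.55, 11.64, 11.60 and 11.65, with a difference of -0.12 (adjusted p = 0.874). Arg1, the arginase of alternatively activated macrophages, was near the floor in all 16 arrays. In wild type 10 of the 38 target genes rose and 4 fell. Among these, Flt1, a VEGF receptor, and Rnase2a, an eosinophil-type ribonuclease, rose by 1.22 and 1.31 on the log2 scale in wild type and differed by -0.01 and 0.00 in the knockout. Il1rn, the IL-1 receptor antagonist, fell by 0.89 in wild type and differed by -0.02 in the knockout. These 3 were named after their values were seen.

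The programmes that IL-4 moved in wild type showed no called member in the knockout. Of 44 measured DNA replication genes 32 rose and 1 fell in wild type, while in the knockout 0 passed and 2 had an unadjusted p under 0.05, Ung lower by 0.06 and Pcna higher by 0.07. On the deposited scale all 44 knockout intervals lay inside 1.2-fold. With the minimum subtracted and 50 added 41 did, and the differences were 0.25 for Pcna and -0.11 for Ung. Mcm5, a subunit of the replicative helicase, stood at 8.45, 8.52, 8.49 and 8.45 in knockout IL-4 arrays and at 8.52, 8.56, 8.53 and 8.49 in knockout vehicle arrays, with overlap. On the log2 scale its upper limit was 1.59% of the wild-type rise, which was 2.10-fold. Of 47 mitosis genes 33 rose in wild type, and in the knockout all 47 intervals lay inside 1.2-fold on the deposited scale and 43 with the minimum subtracted. Plk1, a mitotic kinase, differed by -0.03 in the knockout and by 0.97 in wild type.

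Of 39 adipogenesis and lipid storage genes 21 fell in wild type. In the knockout 0 passed, and 5 of the 39 had an unadjusted p under 0.05, against 5.6% of all probes. Of the 5, 4 were lower (Dgat2, Pparg, Pnpla2 and Lep) and 1 higher (Cidea), against 2.83% and 2.77% of all probes. The median was -0.02. Dgat2, which makes triglycerides, differed by -0.19 (95% interval -0.38 to -0.01) and fell by 0.91 on the log2 scale in wild type. Dgat2, Lep and Cidea were named after their values were seen. Pnpla2, adipose triglyceride lipase, stood at 13.86, 13.81, 13.78 and 13.86 in knockout IL-4 arrays and at 13.88, 13.88, 13.88 and 13.94 in knockout vehicle arrays, without overlap, a difference of -0.07 (95% interval -0.12 to -0.01, adjusted p = 0.863). It fell by 0.49 on the log2 scale in wild type, and the difference between genotypes passed (limma adjusted p = 3.1e-06). Adipoq, adiponectin, differed by 0.08 in the knockout.

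Of 44 extracellular matrix genes 0 passed and 3 were lower at an unadjusted p under 0.05, against 2.83% of all probes. These were Mmp14, Col15a1 (named after its value was seen) and Tgfb3. Mmp14, a membrane-bound collagenase, stood at 12.52, 12.54, 12.56 and 12.50 in knockout IL-4 arrays and at 12.73, 12.59, 12.90 and 12.74 in knockout vehicle arrays. All IL-4 arrays were below all vehicle arrays, by 0.21 on average (adjusted p = 0.754), and by 0.21 without vehicle arrays 2 and 3. Tgfb3, a TGF-beta ligand, differed by -0.14 (95% interval -0.21 to -0.08, adjusted p = 0.754), again without overlap. Col1a1, the main chain of type I collagen, differed by 0.03, and Col3a1 is described with the intervals that passed 1.5-fold.

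The 26 measured FAP identity genes had 0 called members, with Pdgfra higher and Twist2 lower at an unadjusted p under 0.05. Pdgfra, the receptor that marks FAPs, stood at 11.12, 10.76, 10.94 and 10.65 in knockout IL-4 arrays and at 10.56, 10.31, 10.34 and 10.69 in knockout vehicle arrays. The groups overlapped, at means of 10.87 ± 0.21 and 10.48 ± 0.18 (SD, n = 4 each). The difference was 0.39 (95% interval 0.16 to 0.63), with an exact permutation p of 0.0571 and a limma adjusted p of 0.81, and was 0.24 without vehicle arrays 2 and 3. The interval comes from the spread shared with the wild-type arrays and not from these knockout SDs alone. A change in the number of cells of a type and a change of RNA per cell cannot be told apart in such bulk samples. Twist2, a mesenchymal transcription factor, differed by -0.10, and Cd34 was at 7.88 to 7.94 in IL-4 arrays and at 7.86 to 7.93 in vehicle arrays of the knockout, near the floor.

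Of the genes tied to inflammation, Cxcl1, a neutrophil-attracting chemokine, stood at 12.72, 12.65, 12.62 and 12.41 in knockout IL-4 arrays and at 12.78, 12.47, 12.56 and 12.58 in knockout vehicle arrays, a difference of 0.00 (95% interval -0.18 to 0.18). Il6 and Il33, near the floor, differed by 0.03 and -0.01, and Lbp, which binds endotoxin, by 0.01. Mmp3, stromelysin 1, differed by 0.00 (95% interval -0.17 to 0.17) in the knockout and fell by 0.86 on the log2 scale in wild type. Another probe of Mmp3 gave a knockout difference of 0.24. Vim, vimentin, differed by 0.09 (95% interval -0.07 to 0.26) in the knockout and rose by 0.84 in wild type.

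The remaining lists also held 0 called members. Beside 5.6% of all probes, at an unadjusted p under 0.05 stood 3 of 43 endotoxin and NF-kB responsive genes, 1 of 40 interferon-stimulated genes, 2 of 32 immediate early and heat shock genes, 3 of 26 stress response genes and 2 of 28 secreted factors that act on muscle cells. Of these Fgf7, keratinocyte growth factor, stood at 10.65, 10.57, 10.66 and 10.46 in knockout IL-4 arrays and at 10.09, 10.36, 10.39 and 10.42 in knockout vehicle arrays. The groups did not overlap, and the difference was 0.27 (95% interval 0.07 to 0.47, adjusted p = 0.863), against a fall of 0.46 in wild type. Over all 18 lists 532 of 583 entries were measured, 0 passed, and 33 genes of 508 had an unadjusted p under 0.05, against 5.6% of all probes. The medians of the lists ran from -0.02 to 0.03.

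The labelled cell type was read beside markers of other cells, of which most had a mean near the floor. This held for 18 of 23 myogenic markers, 18 of 22 leukocyte markers and 12 of 18 endothelial markers. Mean levels of the lists were 7.93 to 7.95 in knockout IL-4 arrays and 7.94 in knockout vehicle arrays for myogenic markers, and 8.0 to 8.03 against 7.99 to 8.03 for leukocyte markers. For endothelial markers they were 7.92 to 7.94 against 7.94 to 7.95. The knockout groups overlapped in each. Near the floor were also 6 of 15 markers of pericytes and smooth muscle (means 8.47 to 8.53 against 8.48 to 8.51) and 6 of 10 of tenocytes and Schwann cells (8.15 to 8.18 against 8.15 to 8.17). In these 5 marker lists 0 members passed, and 5 had an unadjusted p under 0.05. Lyz2, by the brightest of its 3 probes, carried the largest knockout difference among leukocyte markers. Myog, at 7.81 to 7.86 against 7.85 to 7.96, had the largest size among myogenic ones.

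Some knockout differences were larger than the rest without passing the test, and they are given as values. The 10 largest among genes with an unadjusted p under 0.05 and groups that do not overlap were led by Cdo1, cysteine dioxygenase, at 11.27, 11.02, 11.11 and 10.98 in knockout IL-4 arrays and 10.69, 10.51, 10.49 and 10.92 in knockout vehicle arrays. The difference was 0.44 (95% interval 0.22 to 0.67, adjusted p = 0.754), or 0.29 without vehicle arrays 2 and 3, and Cdo1 fell by 0.71 on the log2 scale in wild type. The next were Ndufs4 (a complex I subunit, 0.36), Eef1b2 (an elongation factor, 0.29), Etfa (an electron transfer flavoprotein, 0.29), Fgf7 (0.27), Psmc5 (a proteasome subunit, 0.23), Cox6b1 (a cytochrome c oxidase subunit, 0.23), Sh3glb1 (0.23), Ensa (0.22) and Gja1 (0.22). For each of Ndufs4, Eef1b2, Etfa, Psmc5, Cox6b1, Sh3glb1 and Ensa another probe of the same gene gave a difference of 0.01 or less.

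Gja1, connexin 43, had the largest wild-type rise of these 10 genes. It stood at 11.00, 10.97, 11.17 and 10.97 in knockout IL-4 arrays and at 10.77, 10.84, 10.73 and 10.88 in knockout vehicle arrays, and at 11.55, 11.74, 11.65 and 11.86 against 10.65, 10.66, 10.83 and 10.74 in wild type. The knockout difference of 0.22 (95% interval 0.09 to 0.36, adjusted p = 0.83) had an upper limit of 36.4% of the wild-type rise, and the genotypes differed (limma adjusted p = 4.96e-05). Ensa, a regulator of protein phosphatase 2A, differed by 0.22 in both genotypes, and that of the knockout did not pass (adjusted p = 0.754) while that of wild type did (adjusted p = 0.013). For Ensa the test of the difference gave a limma adjusted p of 0.99.

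Among genes with an unadjusted p under 0.05 and groups that do not overlap, the 10 largest differences downward were in H2ac10 (-0.31), Gna13 (-0.28), Dag1 (-0.26), H2ac15 (-0.24), H2ac12 (-0.24), Cd99l2 (-0.24), Ddx47 (-0.23), Mmp14 (-0.21), Tmem205 (-0.21) and Pim3 (-0.20). The 3 histone H2A genes are near-identical, so their probes may share signal. H2ac10 stood at 8.85, 8.82, 8.66 and 8.76 in knockout IL-4 arrays and at 8.89, 9.18, 9.36 and 8.88 in knockout vehicle arrays, and vehicle arrays 2 and 3 were the high ones. Without them it differed by -0.12, H2ac15 by -0.10, H2ac12 by -0.15 and Dag1 by -0.15. All 3 rose in wild type, by 0.84, 0.87 and 0.91 on the log2 scale, against the knockout direction. Gna13, a G protein alpha subunit, stood at 8.74, 8.62, 8.65 and 8.53 against 8.82, 8.86, 9.05 and 8.92 and had an adjusted p of 0.61.

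The 5 smallest p-values among named genes were those of Nt5c3b, Ninl, Gna13, Ttc8 and Nova2. Nt5c3b, a nucleotidase, stood at 8.66, 8.68, 8.66 and 8.73 in knockout IL-4 arrays and at 8.52, 8.54, 8.53 and 8.54 in knockout vehicle arrays. The difference of 0.15 (95% interval 0.10 to 0.20) was the 1 with the adjusted p of 0.288, and another probe of the gene gave 0.00. Ninl differed by -0.11 (adjusted p = 0.463), Ttc8 by -0.11 and Nova2 by 0.06 (each adjusted p = 0.754). With the minimum subtracted and 50 added these 3 differed by -0.29, -0.22 and 0.21. A probe with no gene name here, chosen after its values were seen, stood at 10.28, 10.22, 10.22 and 10.05 in knockout IL-4 arrays and at 9.64, 9.69, 9.57 and 9.96 in knockout vehicle arrays. Its difference of 0.48 (95% interval 0.28 to 0.68) had an adjusted p of 0.754, and of 0.0171 with the trended and robust variance model. It was 0.39 without vehicle arrays 2 and 3, and in wild type the probe differed by 0.07.

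Probes called in wild type whose knockout interval excluded 0 in the same direction were led by Irs2, Tenm4, Plpp3, Pik3r1 and Ensa. Tenm4, a teneurin, differed by -0.31 in the knockout and by -0.95 in wild type, and the genotypes differed (limma adjusted p = 0.0257). Plpp3, a lipid phosphate phosphatase, differed by -0.25 and by -0.61, and the test of the difference gave an adjusted p of 0.153 in limma. In the opposite direction to wild type were Cdo1, Ccl9 (0.32), H2ac10, Etfa and Eif4a2 (0.28). Without vehicle arrays 2 and 3 the knockout differences were 0.05 for Ccl9, 0.10 for Eif4a2, -0.13 for Plpp3 and -0.22 for Tenm4.

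An interval could pass 1.5-fold through a large difference, a wide spread between arrays or both. The 15 probes whose interval passed 1.5-fold, chosen after their values were seen, read Cox6c, Cdo1, Npm1, Tmsb4x, Pdgfra, Rps24, Col3a1, Itm2b, Irs2, Brd2, Sfrp1, Ifit3, Actb by 2 probes and the unnamed probe. Cox6c, a cytochrome c oxidase subunit and the 1 probe past 2-fold, stood at 10.55, 9.80, 10.11 and 9.34 in knockout IL-4 arrays and at 9.75, 8.76, 8.90 and 10.15 in knockout vehicle arrays. Its difference was 0.56 (95% interval -0.10 to 1.22, adjusted p = 0.902) and 0.00 without vehicle arrays 2 and 3. Npm1, Tmsb4x, Rps24 and Col3a1 differed by 0.40, 0.40, 0.38 and 0.36 with all arrays, and by 0.17, 0.16, 0.17 and 0.11 without those 2. Brd2, with the largest size downward, differed by -0.35 and by -0.18 without them.

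**Figure D5:**
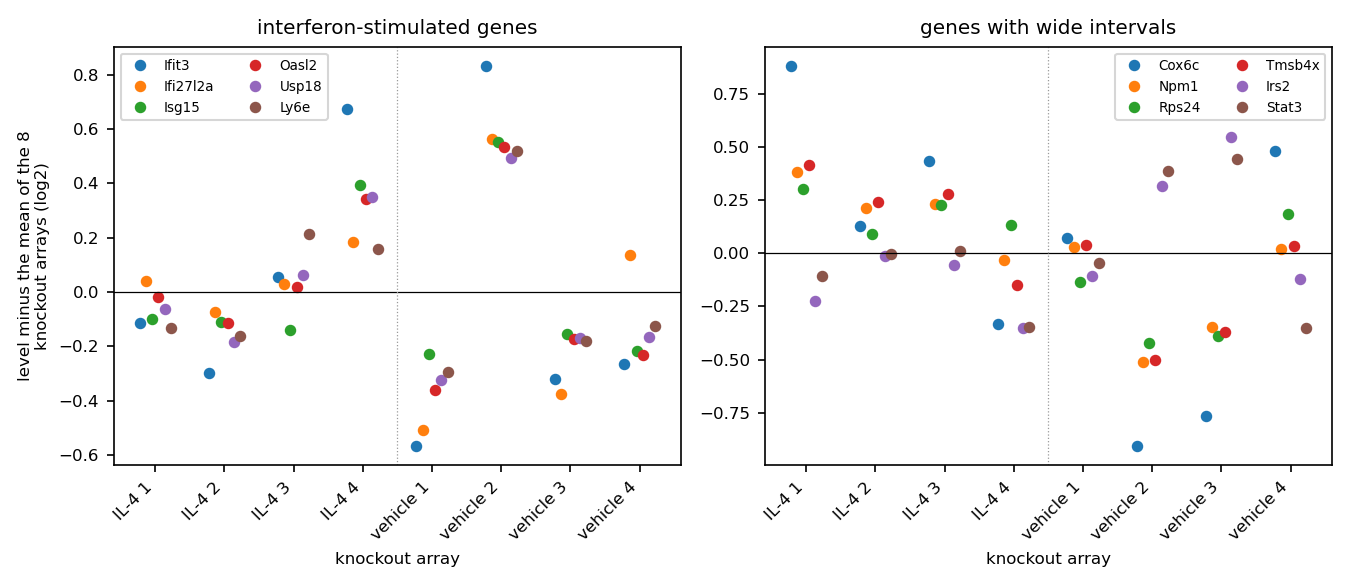
Log2 level minus the mean of the 8 knockout arrays for 6 interferon-stimulated genes (left) and 6 genes with wide intervals (right), by array, with IL-4 arrays left of vehicle arrays. The left genes are high in vehicle 2 and, except Ly6e, next highest in IL-4 4, and Cox6c, Npm1, Rps24 and Tmsb4x are low and Irs2 and Stat3 high in vehicle 2 and 3.

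Interferon-stimulated genes varied between knockout arrays in another way. Isg15, a ubiquitin-like protein induced by type I interferon, stood at 8.10, 8.09, 8.06 and 8.60 in knockout IL-4 arrays and at 7.97, 8.75, 8.05 and 7.98 in knockout vehicle arrays. IL-4 array 4 and vehicle array 2 were high. The mean level of the 40 measured interferon-stimulated genes was 8.54, 8.51, 8.57 and 8.65 in knockout IL-4 arrays and 8.46, 8.70, 8.51 and 8.51 in knockout vehicle arrays. Ifit3, Ifi27l2a, Oasl2, Usp18 and Ly6e were also among the 8 genes with the largest spread within knockout groups, with Cox6c, Isg15 and Stat3. Ifit3 differed by 0.16 (95% interval -0.41 to 0.72), which left this gene unbounded at 1.5-fold, and Isg15 by 0.02 (95% interval -0.33 to 0.38). Without vehicle arrays 2 and 3 Ifit3 differed by 0.49, Oasl2 by 0.35, Usp18 by 0.29, Isg15 by 0.23, Ifi27l2a by 0.23 and Ly6e by 0.23, and 0 probes passed. That setting drops vehicle array 2, where these genes were high. It keeps IL-4 array 4, where all but Ly6e were next highest. Dropping a high vehicle array raises the difference, so these values are not a measure of an IL-4 effect. Leaving out vehicle array 2 with IL-4 array 4 was a choice made after the data were seen: 0 probes passed and 1326 had an unadjusted p under 0.05.

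The difference of the IL-4 responses, wild type minus knockout, passed for 2156 probes (8.39%), 1038 of them upward and 1118 downward. The 3510 probes called in wild type were split by the size of their wild-type change. Among them the difference passed for 80 of 80 at 2-fold or more and 257 of 263 from 1.5-fold. It passed for 941 of 1239 called probes from 1.2-fold (75.9%) and 777 of 1928 called probes below (40.3%). The wild-type change sets these classes and is a term of the difference, so the shares are a description. Over all probes, the difference passed for 1746 without vehicle arrays 2 and 3.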

How the data were processed

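Per the labels, RNA of plated FAPs was purified on RNeasy columns, labelled with Cy3 and hybridised to Illumina bead arrays. The authors deposited a normalized value for each probe and array, read here as log2 intensity. Once sorted, the arrays differ by no more than 0.000592, which is what quantile normalization produces. The sources used here name neither the software nor the background correction, detection calls or log base, and a variance-stabilizing scale cannot be told from log2. Equal distributions hide any change of total RNA.

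Probes were named through the platform annotation: 23978 had 1 symbol, 0 several and 1719 none. Of these 23962 matched RefSeq by Entrez number. A linear model with 4 group means was fitted over the 16 arrays with limma 3.58.1 in R 4.3.3 (12 residual degrees of freedom), without filter. P-values are two-sided and adjusted over the 25697 probes of a contrast. Intervals are 95%, from the moderated spread shared by the 16 arrays. A noisy wild-type group therefore widens a knockout interval, and a quiet one narrows it. Single genes also had an exact permutation test over 70 splits of 8 arrays. The brightest probe stood for a gene in a list.

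The members, lists and alternatives were chosen with earlier results of these data known. Named genes were the 15 largest wild-type rises and falls past the threshold, the 10 largest knockout differences each way at an unadjusted p under 0.05 (groups not overlapping in either), the 5 smallest knockout p-values, up to 2 genes per list by knockout p, 32 fixed genes (30 measured), the 8 largest knockout residual SDs, and 5 wild-type genes each way whose knockout interval excluded 0. Replicate numbers were not used to pair the arrays in the main fit. The code was tested on simulated data. Precision is limited by the number of arrays. The alternatives tried were the replicate block, only the groups compared, a trended and robust variance, array weights, a filter on dim probes, the minimum subtracted with an offset of 50, median centring, other thresholds and arrays left out.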

Additional observations from a re-analysis of the deposited data

Results flagged for a closer look

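Wild type and knockout differed in their response to IL-4 by the interaction test for 2156 probes (8.39%), and for 60 of the 127 named ones. Many of the named probes, with all 30 of the largest wild-type changes, were chosen by the wild-type change, a term of this difference, so the count of 60 is a description. The difference, wild-type change minus knockout change on the log2 scale, was above 0 for these genes: 4.28 for Car4, 3.35 for Daglb, 3.02 for Ccl11, 2.97 for Ccl11, 2.52 for Pcolce2, 2.51 for Aif1l, 2.15 for Cish, 1.95 for Serpina3n, 1.93 for Edn1, 1.86 for Mylk, 1.78 for Il13ra2, 1.74 for Col6a2, 1.69 for Igfbp5, 1.65 for Smpd3, 1.63 for Prc1, 1.42 for Pip4k2a, 1.15 for H2ac10, 1.14 for H2ac12, 1.12 for Mcm5, 1.11 for H2ac15, 1.01 for Plk1, 0.76 for Gja1, 0.75 for Vim, 0.38 for Gna13, 0.34 for Ung, 0.24 for Tgfb3, 0.18 for Spc25 and 0.14 for Cd34. Ccl11 appears with both of its probes. It was below 0 for the following: -1.73 for Itga11, -1.47 for Dio3, -1.47 for Scara5, -1.44 for Kng1, -1.36 for Agtr1a, -1.31 for Lyz1, -1.29 for Cdkn1c, -1.28 for Angptl7, -1.22 for Lyz2, -1.18 for Igfbp4, -1.16 for Cdo1, -1.13 for Gpat3, -1.11 for Bmp4, -1.08 for Smoc1, -1.03 for Tmem86a, -0.99 for Adh1, -0.86 for Mmp3, -0.85 for Ccl9, -0.76 for Itm2b, -0.75 for Etfa, -0.73 for Fgf7, -0.67 for Ndufs4, -0.65 for Eif4a2, -0.65 for Tenm4, -0.58 for Cox6b1, -0.51 for Adipoq, -0.47 for Ppargc1b, -0.42 for Pik3r1, -0.42 for Pnpla2, -0.26 for Twist2, -0.15 for Nt5c3b and -0.064 for Nova2.

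An array stood far from the other 3 of its knockout group in 14 of 254 groups of 4 arrays tested, and chance alone puts about 1 in 20 there. Vehicle array 2 was the distant one for Isg15 (8.75), Daglb (9.24) and Kcnj8 (8.0). Vehicle array 4 was for Scara5 (10.005), Pnpla2 (13.94) and Relb (8.22). IL-4 array 4 was for Isg15 (8.60), Sh3glb1 (8.91), Mmrn2 (7.85) and Brd2 (9.52). IL-4 array 2 was for Nfkb2 (7.77) and Plk1 (8.42), IL-4 array 3 for Gja1 (11.17) and IL-4 array 1 for Socs1 (7.77). Isg15 was the gene with a distant array in both knockout groups.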

How the results depend on the processing

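The count of 0 called probes in the knockout held under each alternative except a trended and robust variance model, which called 1 probe, the unnamed one with a difference of 0.48. With only the groups compared, 99.89% of knockout intervals lay inside 1.5-fold. With the probes at or above the median probe it was 99.90%, and 738 of them had an unadjusted p under 0.05 (12849 probes tested). With the minimum subtracted and an offset of 50 it was 99.84%. At an adjusted p of 0.01 the difference of the responses passed for 1266 probes. Leaving out 1 array at a time gave 0 knockout calls, 1227 to 2028 probes at an unadjusted p under 0.05, 99.89% to 99.96% of intervals inside 1.5-fold, 3002 to 3511 wild-type calls and 1846 to 2236 for the difference. The median knockout change of probes called in wild type, in that direction, was 0.00064 with all arrays and -0.00017 to 0.0029 with 1 array left out. Without knockout vehicle arrays 2 and 3 the counts were 0, 1069 and 1746, and the smallest adjusted p was 0.987.

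The replicate numbers shared by the knockout groups were not used to pair the arrays in the main fit. The deviations of same-numbered arrays correlated at 0.14, 0.05, -0.05 and -0.22, and those of differently numbered arrays at -0.22 to 0.30. With 4 arrays per group these values cannot decide whether same-numbered arrays shared a source. The replicate block gave 0 knockout calls (smallest adjusted p 0.088), 1482 probes at an unadjusted p under 0.05, 99.95% of intervals inside 1.5-fold and 2025 for the difference. The wild-type groups share no replicate number. Single genes were run under the settings planned for them and 1 chosen after the data were seen, without knockout vehicle array 2 and IL-4 array 4. With the minimum subtracted, 56 of the 127 named differences grew by over 1.5 times. Over 127 named probes and 14 settings, 1 of 1778 values passed and 88 changed sign. The cause of these moves was not tested. Having 4 arrays per group and a compressed scale for 57.0% of probes limit what can be bounded.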
